A study of Mus musculus with 4 samples.

Results

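Homeobox and paired-box (Pax) genes encode transcription factors that divide the embryonic brain into territories and often stay on, at lower levels, in the adult neurons of each territory. The account below covers 42 such genes, none of them a Hox gene, chosen by name because they pattern subthalamic, hypothalamic, mammillary, incertal or midbrain territory. All 42 were found among the 25044 entries of the deposited tables. Transcript levels came from RNA sequencing of tissue of the parasubthalamic nucleus (PSTh), a small glutamatergic cell group where the posterior lateral hypothalamus meets the subthalamic nucleus. All 4 libraries, called replicates 1 to 4, came from naive C57BL/6 mice, an inbred strain, with no allele or agent named. Stressed animals were not sequenced, so there is 1 group, and comparisons run between genes within libraries and between libraries. The labels give the tissue as brain, the series text gives the nucleus, while age, the number of animals behind a library and the dissection were not found in them. Nothing in the labels says that replicates are separate animals, so every p-value below measures only the spread between these samples.

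The homeobox encodes the homeodomain, a helix-turn-helix fold that binds short AT-rich sites, and Pax proteins add a paired domain. Cofactors of the TALE class, which carry extra residues in the homeodomain, bind beside other homeodomain proteins and raise their site selectivity. In the caudal hypothalamus, Barhl1 and the Lmx1 genes mark the lineage of the subthalamic nucleus, Nkx2-1 and Otp mark hypothalamic territory, and Dlx genes mark GABAergic cells of the zona incerta and prethalamus.

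Values were read as FPKM, a fragment number corrected for the length of the transcript and the depth of the library, so levels of different genes can be set side by side per length. Library totals were 428612 to 442836 FPKM. The spacing of low values, searched only within a preset range of steps, gave roughly 20300000 to 21400000 fragments per library. Correlations between libraries across genes, which are not independent replicates, were 0.972 to 0.981. Several libraries stood apart on marker genes of neighbouring tissue. In replicate 1, all 6 markers of spinal cord and caudal hindbrain were highest, summing to 19.9 FPKM against at most 0.361, and its 5 Hox genes were at 0 in the other libraries. In replicate 2, all 6 medial hypothalamic markers summed to 183 FPKM against 11.6 to 33.0, and midbrain dopamine markers summed to 939 against 490 to 517. In replicate 3, all 6 thalamic relay markers were highest, summing to 351 FPKM against 21.2 to 49.5. In replicate 4, ependymal and choroid plexus markers summed to 61.9 FPKM against 10.8 to 11.9, but only 3 of 6 were highest there. The choroid plexus gene Ttr gave 49.7 FPKM of that sum, against 0.587 to 1.99 in the other libraries. Folr1, Kcnj13 and Tmem212 were highest in replicate 1 or 2. Pan-neuronal markers summed to 1980 to 2189 FPKM. In bulk tissue, fewer cells of a type and less RNA per cell cannot be told apart.

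Closely related members were compared first as sequence, because reads from near-identical stretches may be divided between paralogs in a way that the sources used here do not describe. The longest exact run shared by the transcripts of 17 related pairs was 14 to 50 bases. The 3 pairs printed here are those with the longest coding run in each Iroquois cluster, and the subthalamic pair that includes the reference gene. Each line is a 90-base window of coding sequence, 5′ to 3′ on the sense strand, from the GENCODE M21 transcripts (GRCm38), and capitals mark the run that both genes of a pair share exactly.
Irx3: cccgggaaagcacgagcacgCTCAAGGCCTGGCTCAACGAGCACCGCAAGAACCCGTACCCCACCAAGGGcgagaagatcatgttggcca
Irx5: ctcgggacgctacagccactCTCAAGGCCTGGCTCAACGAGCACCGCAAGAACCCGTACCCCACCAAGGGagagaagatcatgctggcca
Irx1: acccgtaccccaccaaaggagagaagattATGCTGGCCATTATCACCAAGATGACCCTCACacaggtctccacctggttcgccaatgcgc
Irx2: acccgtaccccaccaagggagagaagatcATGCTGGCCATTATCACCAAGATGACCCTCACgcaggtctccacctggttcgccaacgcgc
Barhl1: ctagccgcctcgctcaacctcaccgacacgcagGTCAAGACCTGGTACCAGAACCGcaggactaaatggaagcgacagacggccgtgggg
Barhl2: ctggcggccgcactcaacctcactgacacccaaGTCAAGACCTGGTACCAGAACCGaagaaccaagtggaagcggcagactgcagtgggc
Of the 90 bases, 79 matched between Irx3 and Irx5, 86 between Irx1 and Irx2, and 75 between Barhl1 and Barhl2. The shared runs were 50, 32 and 23 bases long. Values of these pairs are therefore uncertain to the extent that fragments fell wholly inside such a run.

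Most of the factors were present at low levels. A mean of 1 FPKM or more was reached by 32 of 42 members, and 28 stood at 1 FPKM or more in every library. The median of the members' means was 2.25 FPKM, and their median percentile was 36.5 among the 17630 genes that averaged at least 0.1 FPKM. Only 5 members reached a mean of 5 FPKM: Pbx3, Pou3f3, Nkx2-1, Meis2 and Nkx2-2. Of those 17630 genes, 13044 had a mean of 1 FPKM or more, 12415 stood there in every library, and 8759 reached a mean of 5 FPKM. No member was at 0 in every library, but Pitx1 was listed at 0 in replicate 4 and Lhx8 in replicates 1 and 2. Pax2, a factor of the midbrain-hindbrain boundary, had the lowest mean, 0.0817 FPKM, and was the single member below the filter, so 41 entered the fits. When members were put in order of mean level, the ranges of neighbours overlapped in 39 of 41 steps, and the 2 steps without overlap were Pbx3 above Pou3f3 and Pou3f3 above Nkx2-1.

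**Figure D1:**
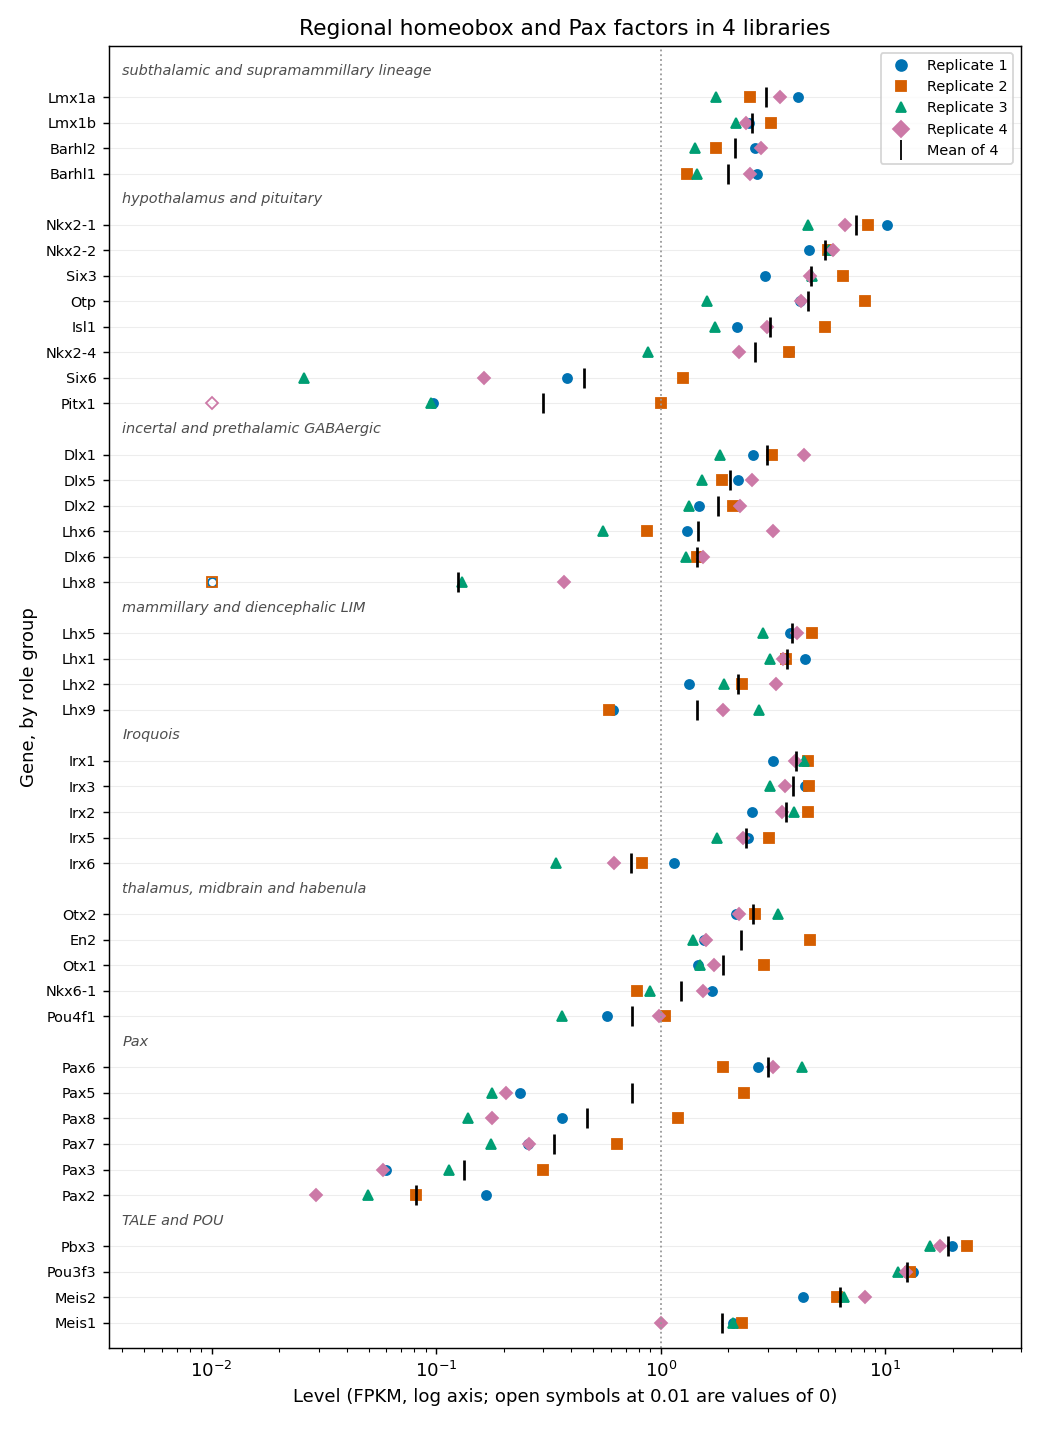
Level of each of the 42 factors (FPKM, log axis), with 1 symbol per library and a black bar at the mean of 4, grouped by the territory each factor is known for. Open symbols at the left edge are values of 0, the dotted line marks 1 FPKM, and Pbx3 and Pou3f3 lie above all others.

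Pbx3 and Pou3f3, of the TALE and POU group, held the highest levels. Pbx3, a TALE cofactor (chr2:34171457-34373142, minus strand, GRCm38), lay at 19.8, 23.1, 15.8 and 17.5 FPKM in replicates 1 to 4 (mean 19.1 ± 3.14, SD, n = 4). Pou3f3, a POU-homeodomain factor of neural progenitors and neurons, lay at 13.3, 12.9, 11.4 and 12.3 FPKM (12.5 ± 0.847, SD, n = 4). Neither overlapped the other or any further member. Meis2, a TALE factor of forebrain and midbrain, lay at 4.29, 6.07, 6.58 and 8.10 FPKM, lowest in replicate 1 and highest in replicate 4. Its relative Meis1 averaged 1.88 FPKM, and its range lay wholly below that of Meis2.

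The subthalamic and supramammillary genes were present in every library at 1 FPKM or more. Barhl1 (chr2:28907679-28916668, minus strand), a BarH-like factor, lay at 2.69, 1.31, 1.44 and 2.49 FPKM (1.98 ± 0.709, SD, n = 4). Lmx1a, a LIM-homeodomain factor also known from midbrain dopamine neurons, was the highest of the group at 4.07, 2.50, 1.76 and 3.38 FPKM. Both genes were higher in replicates 1 and 4 than in replicates 2 and 3, with no overlap between those pairs of libraries. Barhl2, with a mean of 2.15 FPKM, was likewise higher in replicates 1 and 4. Lmx1b, with a mean of 2.54 FPKM, was not, and was highest in replicate 2 at 3.11 FPKM against 2.16 to 2.48 elsewhere. The 4 genes' ranges overlapped.

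Hypothalamic and pituitary factors ranged in mean from 0.299 to 7.43 FPKM. Nkx2-1, which specifies hypothalamic territory (chr12:56531958-56536908, minus strand), lay at 10.2, 8.39, 4.55 and 6.63 FPKM (7.43 ± 2.41, SD, n = 4). Nkx2-2, a ventral patterning factor that oligodendrocyte precursors also use, lay at 4.59, 5.54, 5.62 and 5.84 FPKM. The former was lowest in replicate 3 and the latter lowest in replicate 1, where the summed oligodendrocyte markers were also lowest, at 5649 FPKM against 6530 to 8196; their part in the result was not tested. Otp, required for several neuroendocrine cell types, lay at 4.16, 8.15, 1.61 and 4.20 FPKM. Nkx2-4, a close relative of Nkx2-1, lay at 3.72, 3.74, 0.875 and 2.22 FPKM. Both were lowest in replicate 3, and for Otp replicate 2 was also far above the others. Six3, a forebrain and eye-field factor, and Isl1, a LIM factor of arcuate and motor neurons, averaged 4.69 and 3.08 FPKM. Six6 and Pitx1, both known from the pituitary, averaged 0.457 and 0.299 FPKM.

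The 4 Dlx genes, Lhx6 and Lhx8, grouped as incertal and prethalamic GABAergic factors, were all highest in replicate 4. Dlx1, which promotes GABAergic fate, lay at 2.58, 3.12, 1.83 and 4.36 FPKM. Lhx6, a LIM factor of GABAergic neurons, lay at 1.30, 0.868, 0.555 and 3.16 FPKM. In both, replicate 4 was the highest and replicate 3 the lowest. Dlx2, Dlx5 and Dlx6 had means of 1.79, 2.04 and 1.45 FPKM, and Lhx8, known from basal forebrain cholinergic neurons, 0.12 FPKM.

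Among the LIM genes of mammillary and other diencephalic neurons, Lhx5 lay at 3.76, 4.73, 2.84 and 4.03 FPKM and its relative Lhx1 averaged 3.64 FPKM. Lhx9 lay at 0.614, 0.589, 2.73 and 1.89 FPKM. Replicates 3 and 4 were thus above replicates 1 and 2 for Lhx9, as they also were for the summed thalamic relay markers, at 351 and 49.5 against 29.3 and 21.2 FPKM; the part of thalamic tissue in the result was not tested. Lhx2 averaged 2.21 FPKM.

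The Iroquois genes, TALE-class factors that pattern the neural plate, formed a narrow band apart from Irx6. Irx1 was the highest at 3.15, 4.52, 4.35 and 3.97 FPKM. Irx2, Irx3 and Irx5 had means of 3.61, 3.90 and 2.40 FPKM, and Irx6 0.734 FPKM. Of the thalamic, midbrain and habenular factors, Otx2, a determinant of forebrain and midbrain, was the highest at 2.16, 2.64, 3.33 and 2.22 FPKM. The midbrain factor En2, the habenular and red nucleus factor Pou4f1, Otx1 and Nkx6-1 averaged 2.29, 0.742, 1.89 and 1.23 FPKM.

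Pax genes were low except for Pax6. Pax6, a factor of prethalamus and zona incerta, lay at 2.72, 1.89, 4.27 and 3.17 FPKM, highest in replicate 3 and lowest in replicate 2. Pax5, a factor of the midbrain-hindbrain boundary and of B cells, lay at 0.237, 2.36, 0.178 and 0.205 FPKM, so that 1 library of 4 held most of its signal. Pax8, its relative, lay at 0.363, 1.20, 0.138 and 0.178 FPKM, also highest in replicate 2. Pax3 and Pax7, dorsal patterning factors, averaged 0.133 and 0.333 FPKM.

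The sequences upstream of Pax5 and Pax8 are shown because these related genes share their highest library. Each line is the 250 bases before the RefSeq start (GRCm38.p6), read 5′ to 3′ on the gene's strand, with each CG dinucleotide in capitals, for Pax5 at chr4:44710695-44710944 (minus strand) and Pax8 at chr2:24475600-24475849 (minus strand).
Pax5: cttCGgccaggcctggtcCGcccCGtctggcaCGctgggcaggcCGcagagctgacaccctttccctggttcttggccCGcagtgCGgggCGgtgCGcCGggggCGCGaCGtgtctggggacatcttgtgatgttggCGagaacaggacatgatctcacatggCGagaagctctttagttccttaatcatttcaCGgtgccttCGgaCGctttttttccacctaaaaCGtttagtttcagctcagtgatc
Pax8: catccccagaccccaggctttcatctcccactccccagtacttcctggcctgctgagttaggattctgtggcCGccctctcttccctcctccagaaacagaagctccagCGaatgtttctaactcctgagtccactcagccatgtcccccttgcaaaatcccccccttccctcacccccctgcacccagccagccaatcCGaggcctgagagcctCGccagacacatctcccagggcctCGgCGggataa
The windows hold 19 and 6 CG dinucleotides, against a median of 6 over 32851 RefSeq promoter entries and of 15 over the 41 entries of the 31 members found in that table. The letters TAATTA, a core that many homeodomains bind and that reads the same on both strands, were in neither window. They occurred in 4.88% of the members' entries, which is 2 entries, both of the 1 gene Otx2, and in 4.84% of all entries.

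To place the factors on a common scale, each gene was set against Barhl1 within each library. On log2(FPKM + 0.1), 10 of 40 members were higher than Barhl1 (25.0%) and 9 were lower (22.5%), with 21 not passing (limma, two-sided, Benjamini-Hochberg adjusted over 17629 genes, threshold 0.05). Among all genes, 56.3% passed as higher and 26.0% as lower, so the share of members above Barhl1 was below that of all genes. Each difference subtracts the same 4 Barhl1 values, whose own SD was 0.51 log2 units. The calls share that spread and are not separate evidence for each gene. Pbx3 was higher by 3.25 (SE 0.31, limma adjusted p = 0.000775), Pou3f3 by 2.66 (SE 0.27, adjusted p = 0.000946) and Nkx2-1 by 1.86 (SE 0.29, adjusted p = 0.00326). Meis2, Nkx2-2, Six3, Irx1, Irx3, Lhx5 and Lhx1 were higher by 1.64 to 0.90 log2 units, each in 4 of 4 libraries. Lower were Lhx8, Pax3, Pitx1, Six6, Pax7, Pax8, Irx6, Pou4f1 and Nkx6-1, by differences from -3.46 to -0.65, each in 4 of 4 libraries. The sizes of the lowest members depend on the amount added before the logarithm. With 1 and with 0.01 added, Lhx8 lay at -1.39 and -5.30, Pitx1 at -1.23 and -4.20, Pax3 at -1.37 and -4.03, and Six6 at -1.07 and -3.01, all still passing. By territory, 3 of 4 TALE and POU genes, 3 of 8 hypothalamic genes, 2 of 4 LIM genes and 2 of 5 Iroquois genes passed as higher. None of the 5 thalamic, midbrain and habenular genes, 5 tested Pax genes, 6 incertal genes or 3 other subthalamic genes did so. Otp, at 1.01 above Barhl1 in 4 of 4 libraries, did not pass (SE 0.47, limma adjusted p = 0.101), nor did Pax5 at -1.95 (SE 0.77, limma adjusted p = 0.0672).

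Of the 19 calls, 8 were kept in each fit without 1 library that gave a value: Pbx3, Pou3f3, Nkx2-1, Meis2 and Nkx2-2 as higher, and Lhx8, Pax3 and Pax7 as lower. Lhx8 without replicate 4, and Pax3 and Pitx1 without replicate 2, fell below the filter on level and gave none. The other 11 were lost in at least 1 such fit, with limma adjusted p from 0.0536 to 0.15. Six3, Lhx5 and Irx1 were lost without replicate 2, 3 or 4, with lowest values of 0.87, 0.69 and 0.80. Lhx1 and Irx3 were lost without replicate 1, 2 or 3, with lowest values of 0.73 and 0.74. Pitx1, Six6, Pou4f1 and Pax8 were lost without replicate 1, 3 or 4, Irx6 without replicate 3, and Nkx6-1 without any single library. Without length scaling, Nkx2-2, Lhx5, Irx1 and Irx3 no longer passed.

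**Figure D2:**
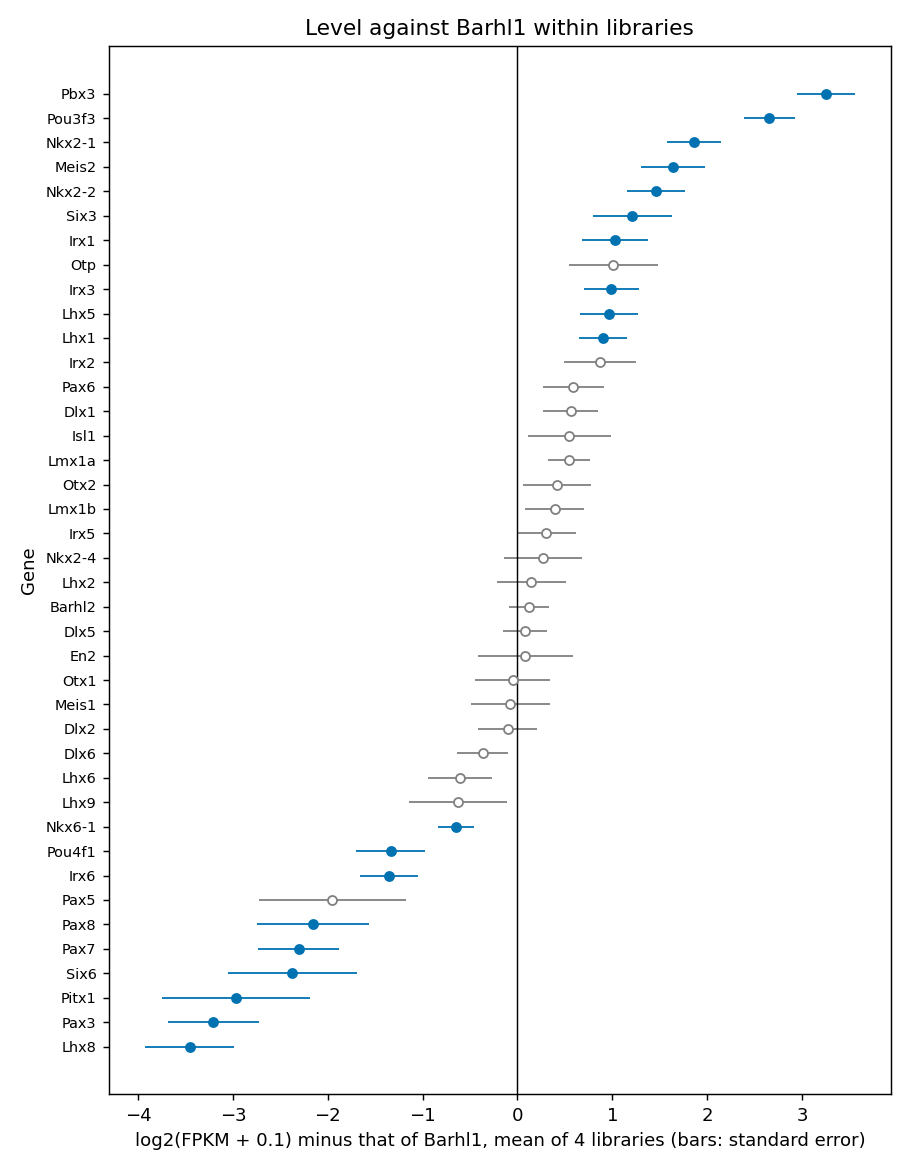
Level of each factor minus that of Barhl1 within libraries, on log2(FPKM + 0.1), as the mean of 4 libraries with its standard error from limma. Filled points passed at an adjusted p under 0.05, 10 above and 9 below the vertical line at Barhl1.

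Related genes were compared pair by pair. Of 17 pairs, 11 had 1 gene higher in all 4 libraries, and in 7 the 2 ranges did not overlap. Among the 11 were Pax2-Pax8 and Pax2-Pax5, and among the 7 Pax2-Pax5, with Pax2 below the filter at 0.0817 FPKM. No share over pairs of other genes was computed, so neither count is read as a trait of related genes. With 4 libraries the smallest two-sided p of the exact sign-flip permutation test corresponds to 12.5%, so no pair could pass, and the lowest adjusted p over the pairs was 0.193. Six3 was 12-fold above Six6, with a log2 difference of 3.59 ± 1.38 (SD, n = 4). Six6 stood at only 0.0258 and 0.164 FPKM in replicates 3 and 4, so the size of that fold depends on the amount added before the logarithm. Meis2 was 3.28-fold above Meis1, Irx5 3.16-fold above Irx6 and Nkx2-1 3.01-fold above Nkx2-4, all in 4 of 4 libraries on log2(FPKM + 0.1). Irx3 was 1.61-fold above Irx5 with little variation, a log2 difference of 0.69 ± 0.11 (SD, n = 4). Barhl1 and Barhl2, Lmx1b and Lmx1a, and Lhx1 and Lhx5 each had 2 libraries in either direction, with log2 differences of -0.13, -0.15 and -0.06.

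Levels of these factors varied more between libraries than those of most genes. The median SD of log2(FPKM + 0.1) was 0.51 over 41 members, 0.17 over all genes and 0.20 over the 13476 genes within the members' range of levels. Over 45 other homeobox and Pax genes that passed the filter on level it was 0.375, so a raised spread was not particular to the members. A limma variance test with a prior that follows the level called 0 of 17630 genes (0.00%) and 0 of 41 members after Benjamini-Hochberg adjustment. At an unadjusted p under 0.05 it took 14 of 41 members (34.1%) against 5.85% of all genes, and 9 of 41 without replicate 2. Of the 45 other homeobox and Pax genes it took 9 at that threshold. On simulated data this test recovered 0.484% of genes with a 6-fold SD, so its count of 0 is no sign of stable levels. Otp had the lowest unadjusted limma p, 0.00245 (adjusted p = 0.333), followed by Nkx2-4 at 0.00549 (adjusted p = 0.465). Lhx9, Lhx6, Pax5, Isl1, En2 and Nkx2-1 followed, with unadjusted p from 0.0104 to 0.0141. The smallest SDs among members were those of Pou3f3 and Dlx6, at 0.099 log2 units each, and Nkx2-2, at 0.15. Among genes in the same 10% band of mean level, these lay at percentiles 41.5, 11.7 and 56.9, so only Dlx6 of the 3 was far below the middle.

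**Figure D3:**
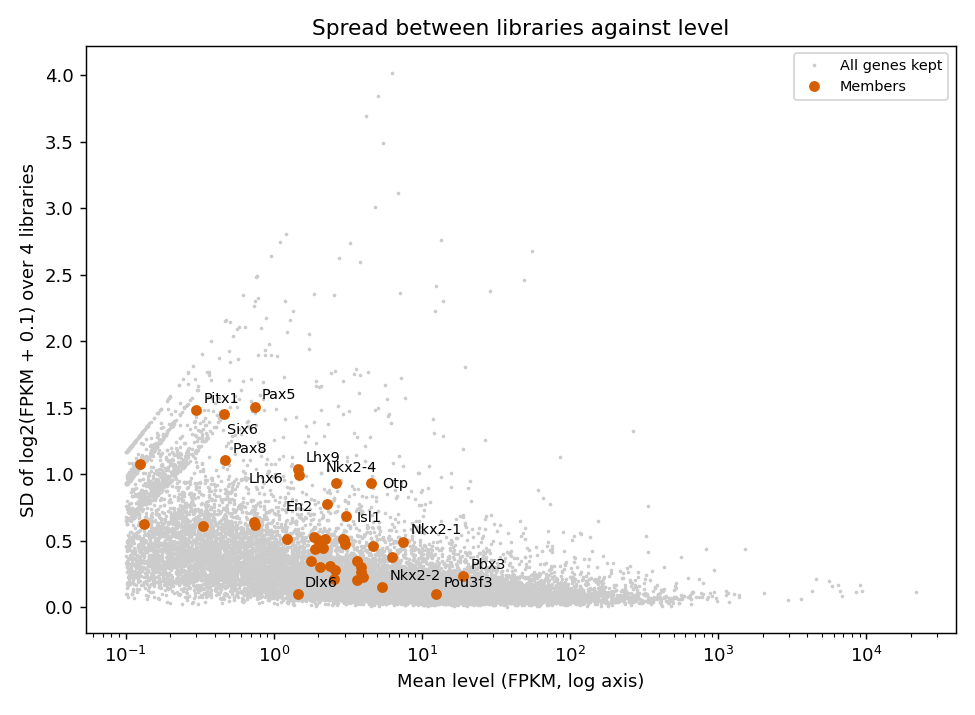
SD of log2(FPKM + 0.1) over 4 libraries against mean level (FPKM, log axis) for all genes kept (grey) and the 41 members (orange), with selected members named. Members lie mostly in the upper part of the cloud at their level, with a median SD of 0.51 against 0.17 for all genes, while Dlx6 lies low for its level.

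The libraries that were high or low differed by territory. Replicate 2 was the highest for 21 of 41 members (51.2%) against 29.1% of all genes, and replicate 3 the lowest for 25 (61.0%) against 35.9%. All 8 hypothalamic and pituitary genes lay above the mean of the other libraries in replicate 2, by a median of 1.07 log2 units. The median was 0.33 over the 41 members and 0.04 over all genes, with 73.2% and 59.1% of them above. Of the 8, 6 were highest in replicate 2, Nkx2-1 in replicate 1 and Nkx2-2 in replicate 4. Beside this stand the medial hypothalamic markers, 6 of 6 highest in replicate 2, and the pituitary list, 4 of 6 highest there with a sum of 43.2 FPKM against 4.38 to 11.4. Pomc is on both lists and gave 30.1 of the 43.2 FPKM. Of the other pituitary hormone genes, Cga stood at 12.1 FPKM in replicate 2 against 0.0676 to 2.34, and Tshb at 0.726 against 0.331 to 0.749. Gh and Prl were at 0 in the other libraries and at 0.213 and 0.051 FPKM in replicate 2. Pou1f1, a pituitary factor, was at 0 in replicates 2 and 4 and at most 0.0277 FPKM elsewhere. The part of these tissues in the result was not tested. The 5 Iroquois genes also lay above the mean of the others in replicate 2, by a median of 0.33, close to that of all members. Of the 5 tested Pax genes, 4 were highest there, with Pax6 lowest. En2, at 4.60 FPKM in replicate 2 against 1.39 to 1.59, was highest in the same library as 5 of 6 midbrain dopamine markers, and the part of midbrain tissue was not tested.

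Replicate 4 gave another pattern. The 6 genes grouped as incertal and prethalamic were highest there, exceeding the average of the remaining libraries by a median of 0.63 on the log2 scale. Pax6, also known from that territory but grouped with the Pax genes, was highest in replicate 3. Of the 6, Lhx8 stood at 0.369 FPKM in replicate 4 and at 0 in replicates 1 and 2. Dlx6 stood at 1.54 FPKM in replicate 4 against 1.48 in replicate 1. The Dlx genes lie in neighbouring pairs that ranked the libraries alike, so the 6 genes are not separate evidence. Replicate 4 was the highest for 10 of 41 members (24.4%) and for 21.5% of all genes. The lateral hypothalamic markers also had their highest sum in replicate 4, 786 FPKM against 186 to 553, with 2 of 6 genes highest there, and their part was not tested. The 4 subthalamic genes all lay below the mean of the other libraries in replicate 3, with a median difference of -0.59. Over all members, 31 of 41 lay below there with a median of -0.48. Over all genes, 10249 of 17630 lay below and the median was -0.05. Thalamic relay markers were highest in that library, and their part was not tested. Counts of members by highest and lowest library moved by at most 1 when values were rescaled to a common sum or upper quartile.

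**Figure D4:**
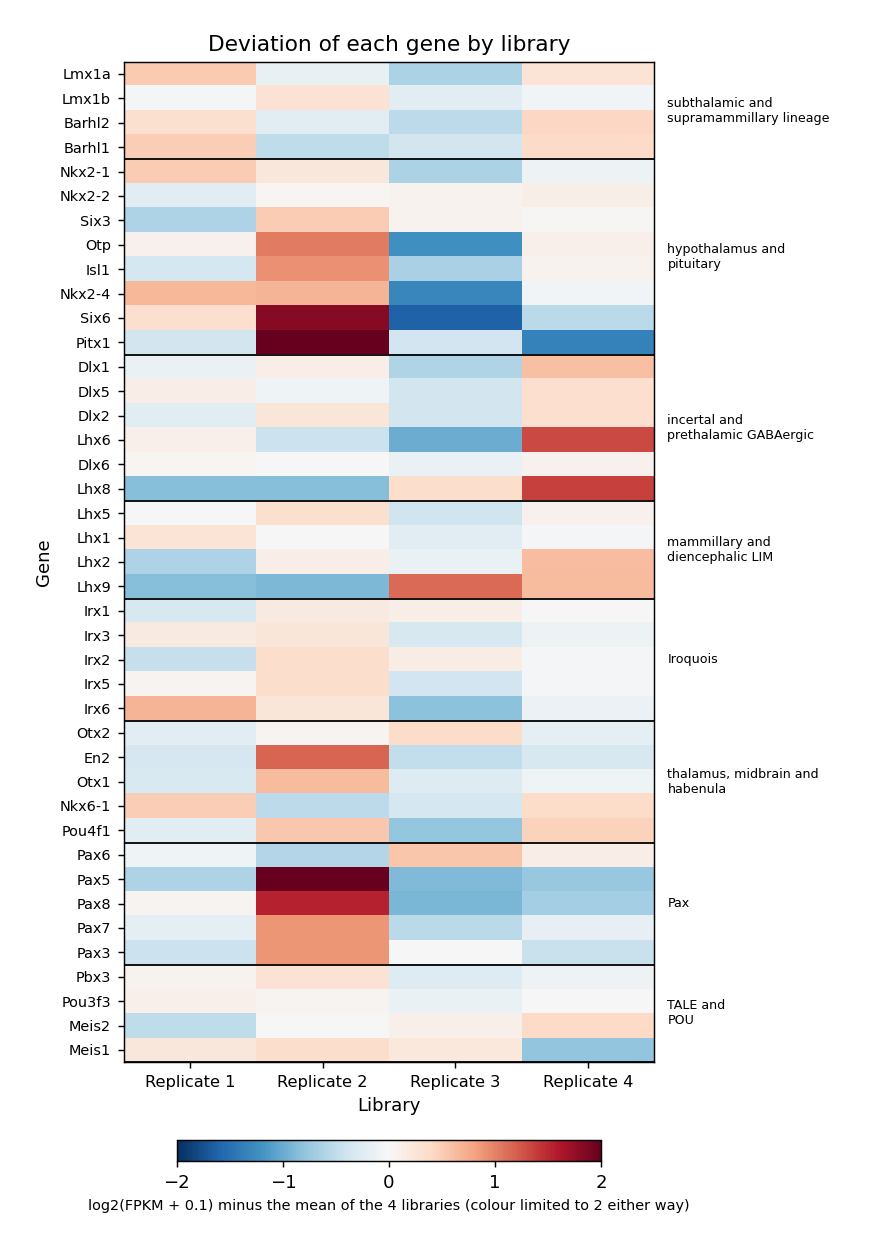
Deviation of each tested factor from its mean over 4 libraries, on log2(FPKM + 0.1), with 1 row per gene and 1 column per library (red above, blue below, limited to 2 either way). Hypothalamic genes are red in replicate 2 and mostly blue in replicate 3, and incertal genes are red in replicate 4.

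Members that lie beside each other in the genome often ranked the libraries alike, a pattern noticed after the values were seen and not tested. Dlx1 and Dlx2 (chr2:71528113-71546754, 9.43 kb apart on opposite strands) both ranked replicates 4, 2, 1, 3 from high to low. Dlx5 and Dlx6 (chr6:6863334-6882085, 9.24 kb apart) both ranked 4, 1, 2, 3. Irx1 and Irx2 (chr13:71957921-72634198, 665 kb apart) both ranked 2, 3, 4, 1, and Irx3 and Irx5 (556 kb apart in the cluster at chr8:91798525-92680956) both ranked 2, 1, 4, 3. Irx6, in the same cluster as Irx3 and Irx5, ranked 1, 2, 4, 3, and Nkx2-2 and Nkx2-4, 92.1 kb apart, ranked 4, 3, 2, 1 and 2, 1, 4, 3. In all, 4 of 6 neighbouring pairs and 0 of 12 unlinked related pairs shared the full ranking, against 5.42% of 15361 pairs of consecutive genes. With values rescaled to a common sum, 3 neighbouring pairs shared it. Some of these ranks rest on small differences, such as Dlx6 at 1.48, 1.45, 1.30 and 1.54 FPKM.

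**Figure D5:**
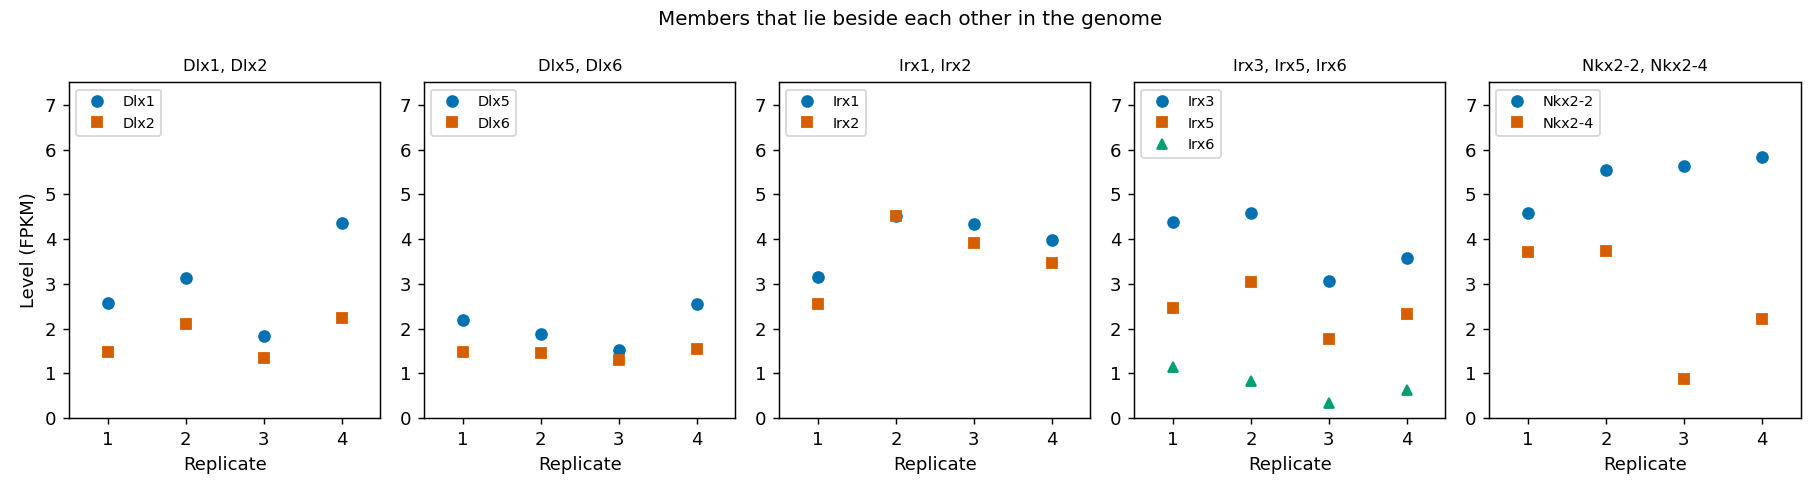
Level (FPKM) of neighbouring factors in replicates 1 to 4, 1 panel per cluster and 1 symbol per gene. The Dlx1-Dlx2, Dlx5-Dlx6, Irx1-Irx2 and Irx3-Irx5 pairs rank the libraries alike, and Irx6 and the Nkx2-2 and Nkx2-4 pair do not.

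A wider list of 72 other homeobox and Pax genes gave the setting. Of these, 45 passed the filter on level and 24 reached 1 FPKM, and 8 were at 0 in every library. Among the highest by mean were Nkx6-2 at 25.9 FPKM, a factor of oligodendrocytes, Cux1 at 22.4, Pbx2 at 15.9 and Meis3 at 15.7. Against Barhl1, 12 of the 45 passed as higher and 20 as lower. Replicate 2 was the highest library for 53.3% of the 45 and replicate 3 the lowest for 44.4%, the former share being slightly above that of the 42 factors. Another gene overlapped 22 of the members in the annotation. Only for Six6 did the tables list the partner, 4930447C04Rik on the opposite strand, at a mean of 2.85 FPKM, and as the use of strand is not given, reads of such partners cannot be told apart from those of the member.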

How the data were processed

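Total RNA of 4 samples (TRIzol) went into mRNA libraries for Illumina sequencing, per the labels' protocols. The authors deposited 1 table per sample, whose values were read as FPKM from their behaviour, since no label or header names the unit. GRCm38 is the build per the submitters' processing notes, while the aligner, the quantifier, the annotation and any strand setting remain not given in the sources used here. Whole steps, to within 0.05, held for 14.0% to 26.7% of low values, so reads were not recovered, no count model was used and fragment numbers are rough. The preset range of steps also bounded the depth that could be found, so the estimate is no independent measure of depth. One column headed with the letter C was taken as replicate 3 from its title, and 0 sample columns were left unused.

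Symbols came from GENCODE M21, matching 22022 of 22036 Ensembl identifiers, and promoters from RefSeq (GRCm38.p6). The 17630 genes averaging at least 0.1 FPKM were analysed as log2(FPKM + 0.1), which shrinks differences between low values. Differences from Barhl1 were fitted with limma 3.58.1 (R 4.3.3), intercept only. Their prior degrees of freedom were limited to 1.63, as estimated from the levels themselves. The variance test used a trended robust prior (4.28 degrees of freedom). On simulated data, 5.43% of unchanged genes had an unadjusted p under 0.05, and 76.8% of genes simulated 1 log2 unit above Barhl1, 99.9% of those 2 above and 84.0% of those 1 below were recovered. Recovery at the larger spread of the members, a median SD of 0.51 against 0.17 over all genes, was not tested. Python 3.11.15, numpy 2.4.6, pandas 2.3.3, scipy 1.17.1 and matplotlib 3.10.9 were used.

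The members and lists were chosen with earlier results of these data known. Values in every library are given for members with a mean of 5 FPKM or more, for the highest of each group, and for those with a mean of 0.5 or more whose highest library is over 4 times the lowest. Barhl1, Pax8, Dlx6 and members with a library apart were added after their values were seen. Alternatives covered the amount added, filters, scalings, length, priors and each library left out. Some items that these rules take are not reported here.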

Additional observations from a re-analysis of the deposited data

Results flagged for a closer look

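In 4 of the 42 members, 1 library lay further from the rest than Dixon's 95% limit for 4 samples allows. Chance alone flags about 5% of groups if values are normally distributed, which was not checked for these FPKM values. The share over all genes was not computed, so the count is not read as a trait of the members. Pax5 stood at 2.36 FPKM in replicate 2, with a Dixon ratio of 0.973. En2 stood at 4.60 FPKM in replicate 2 (0.939), and Pitx1 at 1.00 FPKM in the same library (0.903). Meis1, a TALE factor, was low in replicate 4 at 1.00 FPKM (0.832), while the other libraries lay between 2.09 and 2.31 FPKM. Of the 4, 3 were high in replicate 2, the library with the highest medial hypothalamic, pituitary and midbrain dopamine marker sums, and the part of these tissues was not tested.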

How the results depend on the processing

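No paired analysis was possible because all samples form 1 group. The alternatives on library rankings were chosen after the data were seen. Across all genes, those lower than Barhl1 numbered 201 at a mean of 1 FPKM or more and 11801 with no filter, where 4576 were found. Members higher numbered 6 without length scaling and 5 to 8 with single libraries left out. Members lower numbered 1 at a mean of 1 FPKM or more, which tests fewer low genes, 5 without moderation, and 3 to 7 with single libraries left out. The variance test called 2556 genes with no filter, 3 on the TPM scale and 0 to 8 with single libraries left out, and took 2 members at an unadjusted p under 0.05 with no filter, 9 without trend or robust option and 9 to 15 with single libraries left out. Unlinked pairs sharing a ranking numbered 1 after upper quartile scaling and 0 to 2 over the 3 remaining libraries. Without length scaling, differences from Barhl1 turned to -0.52 for Barhl2, -0.79 for Nkx2-4, -1.25 for Dlx5, -0.21 for Lhx2, -0.20 for Irx5, 0.47 for Otx1, -0.066 for Otx2 and 0.95 for Meis1, and pair differences to 0.52 for Barhl1-Barhl2, 0.36 for Lmx1b-Lmx1a, 0.45 for Lhx1-Lhx5, -0.16 for Dlx5-Dlx6 and -0.53 for Otx2-Otx1. With single libraries left out, differences spanned -0.12 to 0.58 for Nkx2-4, -0.35 to 0.13 for Dlx2, -0.053 to 0.20 for Dlx5, -0.063 to 0.51 for Lhx2, -0.43 to 0.21 for Otx1, -0.47 to 0.36 for En2, -0.36 to 0.31 for Meis1, -0.30 to 0.035 for Lmx1b-Lmx1a and -0.16 to 0.043 for Lhx1-Lhx5. None of these had passed with 4 libraries as deposited, and where not stated the cause was not tested. Pax5 passed as lower without replicate 2 (-2.87, limma adjusted p = 0.00365). Depth limits the lowest members: Pitx1, Lhx8, Pax2 and Pax3 rest on roughly 0 to 51.4 fragments per library. Six6 rests on roughly 2.1 fragments in replicate 3 and 105 in replicate 2.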
